A study of Mus musculus with 16 samples.

Results

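DNA replication and S phase genes were followed across sorted cells of the mouse cortex. The 41 genes were taken by symbol from a fixed list of genes used in S phase, of the 53379 genes in the count tables. The rule itself used no measured value, but the list was chosen with earlier results of these data known. By role they were 6 subunits of the replicative helicase, 5 genes of origin licensing and firing, 8 genes of the fork polymerases, clamp and loaders, 3 of nucleotide supply, 7 of histone supply and chromatin, 9 of checkpoint and repair, and 3 cell cycle regulators and others. Uhrf1, often listed with them, was left out by design.

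The study asked what a cell does when it alone loses Eed, a core subunit of the histone methyltransferase complex PRC2. Green cells were sorted from the neocortex at P4 by mosaic analysis with double markers (MADM) on chromosome 7, in mice labelled as strain CD1 (the study's methods give a mixed C57BL/6 and CD1 background), and each library was made from the polyA RNA of sorted cells by Smart-Seq v2. Of 16 libraries, 15 carried a group in their labels: 5 of Eed+/+ astrocytes, 5 of Eed-/- astrocytes, 2 of Eed+/+ neurons and 3 of Eed-/- neurons. The Eed+/+ cells came from wild-type control-MADM mice (MADM7-GT/TG with Emx1-cre and XGFAP-lacZ). The Eed-/- cells came from Eed-MADM mice (the same alleles, but MADM7-GT/TG,Eed), in which the animal is heterozygous and only the sparse green cells are homozygous mutant. In both genotypes recombination was driven by Emx1-cre, which is active in cortical radial glial progenitors. Green cells carried both copies of chromosome 7 from the father. Astrocytes were separated from neurons by lacZ under the human GFAP promoter, as lacZ-positive against lacZ-negative green cells. Individual animals served as the replicates.

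Gene reads ran from 994077 to 3178529 in the 10 libraries with at least 60% and at least 1000000 uniquely aligned reads, called well aligned here, and from 211736 to 477760 in the other 5 labelled libraries. The well aligned ones were Eed+/+ astrocytes 1, 2, 4 and 5, Eed-/- astrocytes 2 and 5, Eed+/+ neurons 1, and Eed-/- neurons 1, 2 and 3. Levels are given as CPM, gene reads scaled to a library total of 1000000, and 0 reads in a well aligned library allowed a level of up to 0.944 to 3.02 CPM, by counting error only. Eed itself was at 41.9, 64.2, 35.3 and 25.3 CPM in the well aligned Eed+/+ astrocytes, 13.8 and 14.1 CPM in the Eed-/- astrocytes, 67.7 CPM in Eed+/+ neurons 1 and 16.7, 35.95 and 32.7 CPM in the Eed-/- neurons, so reads of the gene remained in mutant cells. The study's methods place the deleted part inside the gene, and the gene counts also take in exons outside it, so they cannot by themselves check the deletion. The summed level of 12 astrocyte markers was 21300.2 to 43040.3 CPM in the well aligned astrocyte libraries and 8679.8 to 15186 CPM in the neuron libraries. For 12 neuron markers the ranges overlapped, at 253 to 2946 CPM in astrocytes and 1728 to 2899 CPM in neurons, although each of the 12 had a higher mean in neurons. The lacZ-negative libraries, set apart by the astrocyte markers but not by the neuron markers, are called neurons by their label.

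S phase genes act in a fixed order. The MCM2-7 ring is loaded at origins with the help of Cdc6 in G1, is kept from being loaded again by geminin (Gmnn), and is turned into an active helicase by Cdc45 and the GINS complex. Polymerases held by the PCNA clamp then copy the strands while ribonucleotide reductase and thymidylate synthase supply nucleotides and chaperones supply histones. E2F factors drive most of these genes at the G1/S transition. The genes fall silent in cells that have left the cycle, as cortical projection neurons have after birth, whereas glia and progenitors of the early postnatal cortex still divide.

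Because these genes are textbook E2F targets, the 250 bases before each RefSeq start (build GRCm38.p6) were searched on both strands for TTTCCCGC, TTTCGCGC, TTTGCCGC and TTTGGCGC, forms of the E2F motif. TTTCGCGC and TTTGGCGC can overlap head to head on opposite strands. A window was held for 31 of the 41 genes, and 9 of these 31 (29.0%) contained at least 1 match, compared with 583 of 27025 genes in the table (2.16%). The 9 were Mcm5, Mcm6, Mcm7, Cdc6, Dtl, Pola1, Casp8ap2, Hells and Cdca7. The 180 bases before the start are shown for 5 of them that return below: Mcm5 and Mcm6, which hold overlapping matches, Cdc6 for licensing, Dtl, which gave the smallest p between the cell types, and Hells for chromatin. Each is 5′ to 3′ on the strand of the gene, and capitals mark the matches.
Mcm5, chr8:75109329-75109508, plus strand: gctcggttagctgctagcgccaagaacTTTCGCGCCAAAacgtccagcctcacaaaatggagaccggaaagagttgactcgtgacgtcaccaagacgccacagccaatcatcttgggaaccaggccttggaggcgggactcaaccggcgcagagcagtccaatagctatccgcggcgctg
Mcm6, chr1:128359706-128359885, minus strand: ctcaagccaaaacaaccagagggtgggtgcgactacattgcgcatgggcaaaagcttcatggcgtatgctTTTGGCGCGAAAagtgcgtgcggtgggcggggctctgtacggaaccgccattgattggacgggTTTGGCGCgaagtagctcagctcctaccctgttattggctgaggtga
Cdc6, chr11:98907971-98908150, plus strand: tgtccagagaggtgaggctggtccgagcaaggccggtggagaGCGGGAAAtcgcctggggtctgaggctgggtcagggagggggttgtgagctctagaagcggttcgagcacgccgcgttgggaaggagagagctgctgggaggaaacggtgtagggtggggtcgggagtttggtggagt
Dtl, chr1:191575545-191575724, minus strand: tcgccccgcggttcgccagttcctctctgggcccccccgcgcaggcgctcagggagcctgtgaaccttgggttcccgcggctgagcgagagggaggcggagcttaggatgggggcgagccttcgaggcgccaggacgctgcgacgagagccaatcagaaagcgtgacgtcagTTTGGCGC
Hells, chr19:38930810-38930989, plus strand: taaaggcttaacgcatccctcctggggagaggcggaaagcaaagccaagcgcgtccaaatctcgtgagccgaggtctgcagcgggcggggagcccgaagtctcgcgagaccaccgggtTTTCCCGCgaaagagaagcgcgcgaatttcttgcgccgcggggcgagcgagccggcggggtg
A match is a description of the letters, not a bound site. Between cell types, the median log2 fold change (astrocytes minus neurons, defined below) was −1.75 over the 9 genes with a match, −1.003 over the 22 whose window had none and −1.65 over the 10 without a window, a difference that was not tested.

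Every one of the 41 genes was detected in each of the 4 well aligned neuron libraries, and 14 were detected in all 6 well aligned astrocyte libraries. The summed level of the 41 genes was 1377, 766, 2373 and 503 CPM in Eed+/+ astrocytes 1, 2, 4 and 5, 488 and 1648 CPM in Eed-/- astrocytes 2 and 5, 2397 CPM in Eed+/+ neurons 1, and 2642, 2499 and 3389 CPM in Eed-/- neurons 1, 2 and 3. The 4 neuron libraries lay together at 2732 ± 449.5 CPM (mean ± SD, n = 4), and the 6 astrocyte libraries, spread over a wide range at 1193 ± 747 CPM (n = 6), all lay below them, the highest of them, Eed+/+ astrocytes 4, only just. In bulk libraries, fewer cycling cells and less RNA of these genes per cell cannot be told apart.

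**Figure D1:**
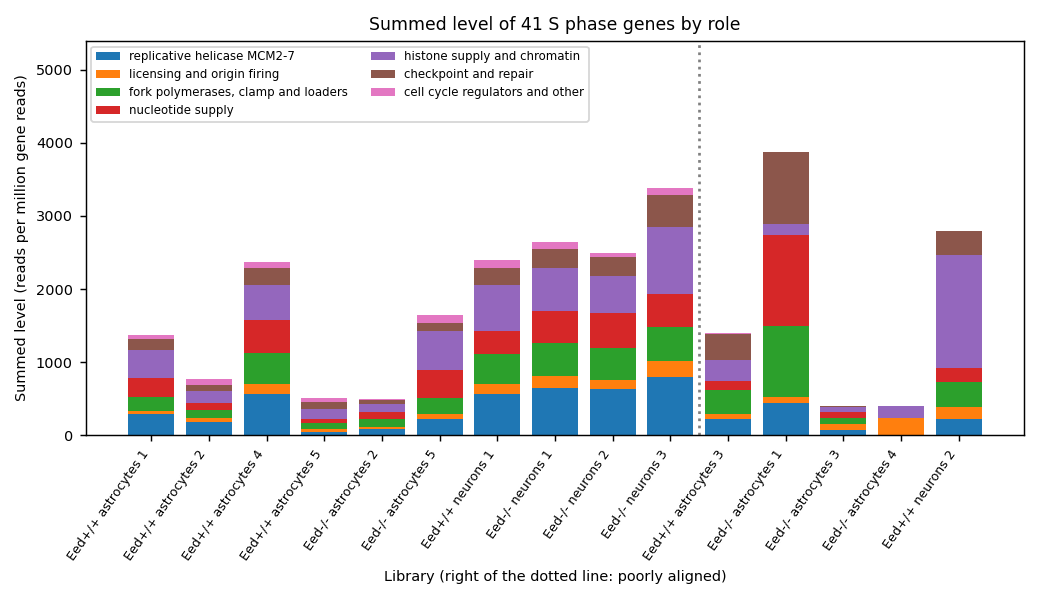
Summed level of the 41 genes in each of the 15 labelled libraries, in CPM on an axis from 0, with bars stacked by role and poorly aligned libraries to the right of the dotted line. The 4 well aligned neuron libraries stand at 2397 to 3389 CPM, while well aligned astrocyte libraries run from 488 to 2373 CPM.

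The low astrocyte sums went with missing genes. In Eed+/+ astrocytes 5 and Eed-/- astrocytes 2, 21 and 19 of the 41 genes had no read, so that 48.8% and 53.7% of them were detected, compared with 71.2% and 74.5% of the 14445 genes tested between cell types. These 2 libraries also had the fewest genes detected of the well aligned ones, 11433 and 12357. In Eed-/- neurons 3, by contrast, 22 of the 41 genes had their highest level of the 10 libraries, and 33 of the 41 had it in a neuron library. From library to library, the coefficient of variation of a gene had a median of 30.0% over the 41 genes in neurons (41.9% over all 14445 genes) and of 96.1% in astrocytes (67.1% over all genes); 2 genotypes were pooled in each.

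**Figure D2:**
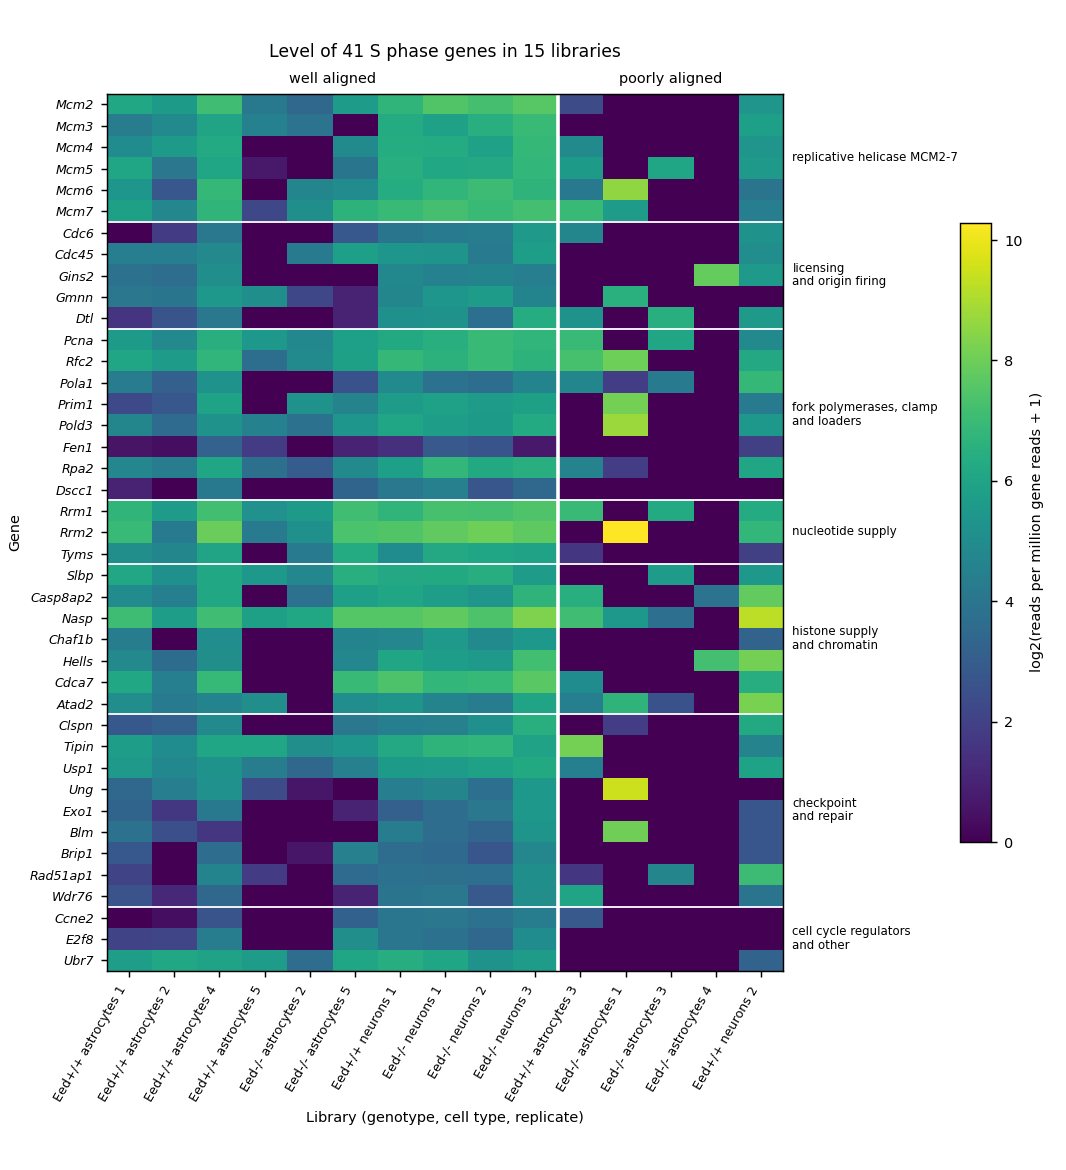
Level of each of the 41 genes (rows, grouped by role) in the 15 labelled libraries (columns), as log2 of CPM plus 1. The neuron columns are filled throughout among the well aligned libraries, whereas Eed+/+ astrocytes 5 and Eed-/- astrocytes 2 have 21 and 19 genes at 0, and 3 of the poorly aligned astrocyte columns are mostly at 0.

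The replicative helicase MCM2-7 unwinds the template strands, and its 6 subunits work in equal number. In the order of replicates given above, Mcm2 was at 69.6, 48.1, 138 and 16.7 CPM in Eed+/+ astrocytes, 10.1 and 50.3 CPM in Eed-/- astrocytes, 105 CPM in the Eed+/+ neuron library and 181, 152 and 193 CPM in Eed-/- neurons. Mcm3 was at 19.5, 29.3, 64.03 and 22.2 CPM in Eed+/+ astrocytes, 14.3 and 0 CPM in Eed-/- astrocytes, 80.6 CPM in the Eed+/+ neuron library and 58.9, 88.9 and 122 CPM in Eed-/- neurons. The 4 neuron libraries were higher than 5 of the 6 astrocyte libraries for both genes. Eed+/+ astrocytes 4 reached into the neuron range, and Mcm3 had no read in Eed-/- astrocytes 5. Mcm4 stood at 31.5, 47.5, 77.8 and 0 CPM in Eed+/+ astrocytes, 0 and 28.2 CPM in Eed-/- astrocytes, 82.8 CPM in the Eed+/+ neuron library and 79.6, 58.3 and 114 CPM in Eed-/- neurons. Mcm5 was found at 66.7, 16.05, 67.8 and 0.617 CPM in Eed+/+ astrocytes, 0 and 15.1 CPM in Eed-/- astrocytes, 87.3 CPM in the Eed+/+ neuron library and 70.03, 72.9 and 109.96 CPM in Eed-/- neurons. Mcm5 did not overlap between cell types, and both genes had 0 reads in Eed-/- astrocytes 2. Mcm6 lay at 40.99, 5.98, 114 and 0 CPM in Eed+/+ astrocytes, 25.4 and 30.2 CPM in Eed-/- astrocytes, 82.8 CPM in the Eed+/+ neuron library and 109, 130.2 and 103 CPM in Eed-/- neurons. Mcm7 had 56.2, 25.8, 104 and 3.701 CPM in Eed+/+ astrocytes, 33.9 and 101 CPM in Eed-/- astrocytes, 124 CPM in the Eed+/+ neuron library and 153, 126 and 149 CPM in Eed-/- neurons. Mcm7 did not overlap either, while Mcm6 did, through its level in Eed+/+ astrocytes 4. Reads of Mcm7 shared with Ap4m1 and Cops6, whose exons overlap it on the other strand, were set aside in counting without strand, so its level is uncertain. The same holds for Cdc45, Gins2, Rfc2, Fen1, Dscc1, Slbp, Ccne2, E2f8 and Ubr7, which also share exonic bases with a gene on the other strand.

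Origin licensing and firing were represented by lower counts. Cdc6, the loader of the MCM ring, was at 0, 2.52, 16.2 and 0 CPM in Eed+/+ astrocytes, 0 and 6.04 CPM in Eed-/- astrocytes, 15.1 CPM in the Eed+/+ neuron library and 17.5, 18.9 and 46.3 CPM in Eed-/- neurons. Cdc45, a part of the active helicase, was at 20.02, 20.8, 27.9 and 0 CPM in Eed+/+ astrocytes, 17.98 and 55.3 CPM in Eed-/- astrocytes, 41.97 CPM in the Eed+/+ neuron library and 38.99, 18.5 and 53.7 CPM in Eed-/- neurons. Cdc6 was at 0 in 3 astrocyte libraries and overlapped the neurons only through Eed+/+ astrocytes 4, while Cdc45 overlapped freely and was highest of all in Eed-/- astrocytes 5. Gmnn, the inhibitor of reloading, stood at 15.7, 14.8, 44.1 and 33.9 CPM in Eed+/+ astrocytes, 3.703 and 1.01 CPM in Eed-/- astrocytes, 25.2 CPM in the Eed+/+ neuron library and 41.4, 50.04 and 24.1 CPM in Eed-/- neurons. It was the only one of the 22 genes chosen by role, apart from Mcm3, for which both well aligned Eed-/- astrocyte libraries lay below all 4 Eed+/+ ones. Over the 39 tested of the 41 genes 3 did so, against 7.83% of all 12070 genes tested. Dtl, the substrate receptor of the ubiquitin ligase that removes the licensing factor Cdt1, was at 1.91, 5.35, 16.2 and 0 CPM in Eed+/+ astrocytes, 0 and 1.01 CPM in Eed-/- astrocytes, 34.7 CPM in the Eed+/+ neuron library and 36.6, 12.6 and 82.2 CPM in Eed-/- neurons. Gins2, a GINS subunit, had 0 reads in both well aligned Eed-/- astrocyte libraries and 146 reads over the 4 Eed+/+ ones, of which Eed+/+ astrocytes 5 had none, at least 15.1-fold lower when set against 3 counts over the group. Of the 146 reads, 80 came from Eed+/+ astrocytes 4, and without that library the bound was 9.2-fold. In the poorly aligned Eed-/- astrocytes 4, however, it had 49 reads (231 CPM), 59.04% of that library's reads of the 41 genes and above its level in every Eed+/+ astrocyte library.

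At the fork, Pcna, the sliding clamp, was at 47.7, 27.4, 86.5 and 44.4 CPM in Eed+/+ astrocytes, 26.98 and 54.3 CPM in Eed-/- astrocytes, 76.1 CPM in the Eed+/+ neuron library and 86.7, 125 and 109 CPM in Eed-/- neurons. Prim1, the catalytic primase subunit, stood at 3.81, 5.98, 62.4 and 0 CPM in Eed+/+ astrocytes, 38.1 and 23.1 CPM in Eed-/- astrocytes, 49.2 CPM in the Eed+/+ neuron library and 58.1, 48.6 and 56.2 CPM in Eed-/- neurons. Pcna was found in every one of these libraries, and the astrocyte level reached the neuron range in Eed+/+ astrocytes 4 only. Fen1, the flap endonuclease of Okazaki fragments, was at 0.477, 0.315, 8.32 and 2.47 CPM in Eed+/+ astrocytes, 0 and 1.01 CPM in Eed-/- astrocytes, 1.68 CPM in the Eed+/+ neuron library and 6.37, 5.34 and 0.618 CPM in Eed-/- neurons. It was low everywhere, and it shares exons with Tmem258 on the other strand, which unstranded counting sets aside. Of the remaining 5, the mean level over well aligned astrocyte libraries went from 1.02 (Dscc1, of an alternative clamp loader) to 8.95 CPM per kilobase of exon (Rpa2, a subunit of the single-strand binding protein RPA). In neurons it went from 2.25 (Pola1, DNA polymerase alpha) to 27.3, again for Rpa2.

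Nucleotide supply held the most abundant of the 41 genes per kilobase. Rrm2, the small subunit of ribonucleotide reductase and the part limited to S phase, was at 122, 17.3, 242 and 17.9 CPM in Eed+/+ astrocytes, 34.4 and 165 CPM in Eed-/- astrocytes, 178 CPM in the Eed+/+ neuron library and 218, 258 and 211 CPM in Eed-/- neurons. Rrm1, its large subunit, was at 104, 49.1, 143 and 35.8 CPM in Eed+/+ astrocytes, 47.6 and 139 CPM in Eed-/- astrocytes, 104 CPM in the Eed+/+ neuron library and 157, 153 and 175 CPM in Eed-/- neurons. Tyms, thymidylate synthase, was at 33.4, 25.2, 62.8 and 0 CPM in Eed+/+ astrocytes, 18.5 and 80.5 CPM in Eed-/- astrocytes, 31.3 CPM in the Eed+/+ neuron library and 72.4, 67.5 and 60.5 CPM in Eed-/- neurons. All 3 overlapped between cell types, with Eed+/+ astrocytes 4 and Eed-/- astrocytes 5 inside or above the neuron range in each but Rrm2, for which only the former was. Per kilobase of exon, Rrm2 led with a mean of 78.01 CPM in neurons and 36.01 CPM in astrocytes. Cdca7 and Tipin followed in neurons with 46.9 and 45.7, and Tipin and Pcna in astrocytes with 26.04 and 19.9. Pseudogenes are annotated for Tyms, Pcna and Nasp, so the levels of all 3 are uncertain.

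For histone supply and chromatin, Slbp, which binds the stem-loop of histone mRNAs, was at 68.2, 34.6, 68.2 and 44.4 CPM in Eed+/+ astrocytes, 26.4 and 87.5 CPM in Eed-/- astrocytes, 73.9 CPM in the Eed+/+ neuron library and 75.6, 83.6 and 48.8 CPM in Eed-/- neurons. Chaf1b, a subunit of the histone chaperone CAF-1, was at 19.1, 0, 31.6 and 0 CPM in Eed+/+ astrocytes, 0 and 24.1 CPM in Eed-/- astrocytes, 26.3 CPM in the Eed+/+ neuron library and 44.6, 28.2 and 43.2 CPM in Eed-/- neurons. Hells, a chromatin remodeller needed for DNA methylation, stood at 27.6, 11.3, 33.3 and 0 CPM in Eed+/+ astrocytes, 0 and 26.2 CPM in Eed-/- astrocytes, 64.4 CPM in the Eed+/+ neuron library and 54.1, 44.7 and 141 CPM in Eed-/- neurons. Slbp overlapped between cell types, Chaf1b was at 0 in 3 astrocyte libraries and elsewhere close to the neurons, and Hells was lower in all 6 astrocyte libraries than in any neuron library. Nasp, a histone H3-H4 chaperone, carried more reads than any other of the 41 genes in 6 of the 10 well aligned libraries, with 224 ± 65.7 CPM in neurons (n = 4) and 107 ± 55.3 CPM in astrocytes (n = 6).

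Of the checkpoint and repair genes, Clspn, the adaptor that activates Chk1 at stalled forks, was at 6.196, 7.87, 28.3 and 0 CPM in Eed+/+ astrocytes, 0 and 16.1 CPM in Eed-/- astrocytes, 20.7 CPM in the Eed+/+ neuron library and 21.5, 34.5 and 88.95 CPM in Eed-/- neurons. Usp1, which removes ubiquitin from PCNA and FANCD2, was at 45.3, 26.7, 37.8 and 19.7 CPM in Eed+/+ astrocytes, 10.1 and 21.1 CPM in Eed-/- astrocytes, 47.6 CPM in the Eed+/+ neuron library and 49.3, 57.8 and 75.98 CPM in Eed-/- neurons. Usp1 was lower in every astrocyte library than in any neuron library, with 45.3 CPM in Eed+/+ astrocytes 1 and 47.6 CPM in Eed+/+ neurons 1 as the nearest pair. Ung, the uracil glycosylase, had 1 read over the 2 well aligned Eed-/- astrocyte libraries and 178 over the 4 Eed+/+ ones, a ratio of 0.0181 (95% exact binomial interval 0.000456 to 0.102, for counting error only). In the poorly aligned Eed-/- astrocytes 1, however, Ung was at 718 CPM, and at 0 in Eed-/- astrocytes 3 and 4. Of the regulators, Ccne2, cyclin E2, stood at 0, 0.315, 5.41 and 0 CPM in Eed+/+ astrocytes, 0 and 8.05 CPM in Eed-/- astrocytes, 15.7 CPM in the Eed+/+ neuron library and 15.9, 13.6 and 19.8 CPM in Eed-/- neurons. E2f8, a repressor of E2F targets, was at 3.34, 3.46, 18.7 and 0 CPM in Eed+/+ astrocytes, 0 and 33.2 CPM in Eed-/- astrocytes, 15.7 CPM in the Eed+/+ neuron library and 13.5, 10.2 and 31.5 CPM in Eed-/- neurons. Ccne2 did not overlap between cell types, and E2f8 did, with its highest level in Eed-/- astrocytes 5.

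**Figure D3:**
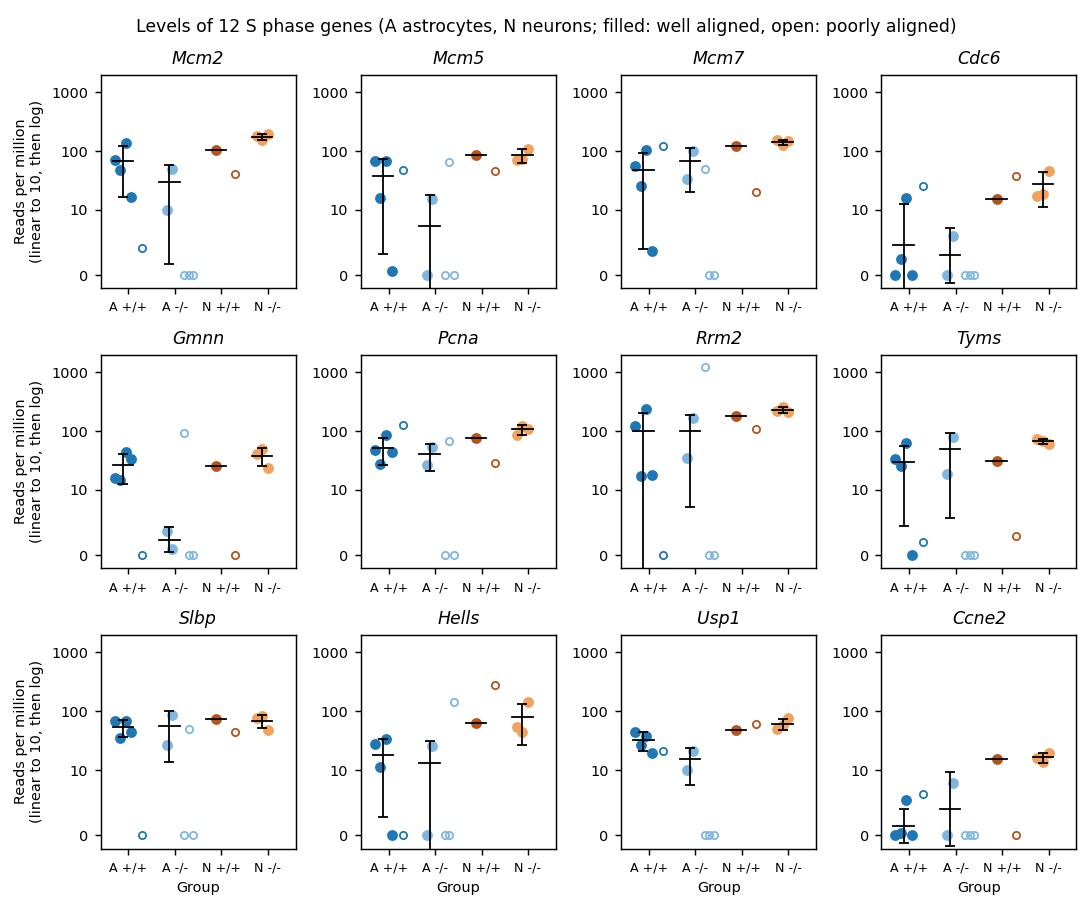
Level of 12 of the genes in each library, in CPM on an axis that is linear up to 10 and logarithmic above, by group (A astrocytes, N neurons, each Eed+/+ and Eed-/-). Filled points are well aligned libraries with their mean and SD (SD only for 2 or more libraries, cut off where it passes below the axis), and open points are poorly aligned ones. Mcm5, Mcm7, Hells, Usp1 and Ccne2 show no overlap of filled astrocyte and filled neuron points. The 12 were picked from the 22 genes chosen by role, not at random, and hold most genes without overlap. Over all 41 genes 6 lay without overlap in this direction, against 3.2% of all 14445 genes tested.

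Astrocytes were compared with neurons over the 10 well aligned libraries, with the 4 group means averaged over genotype (1 of them that of a single library, Eed+/+ neurons 1), to ask whether the lacZ-sorted populations differed in S phase genes. The fitted log2 fold change (astrocytes minus neurons) was below 0 for all 41 genes, with a median of −1.32 compared with −0.16 over all 14445 genes tested, of which 57.8% were below 0. None of the 41 passed an adjusted p of 0.05 in edgeR's quasi-likelihood test, and neither did any gene of the table (percent called 0); the smallest adjusted p of the 41 was 0.500. At an unadjusted p under 0.05, 12 of the 41 were lower in astrocytes (29.3%), against 4.28% of all genes, and none was higher, against 3.41%. limma-voom called none of the 41, and DESeq2 called Dtl alone, lower, in a fit that called 0.0831% of all genes lower. Without the filter on low counts 3 of the 41 were called lower, Dtl, Mcm3 and Mcm5, against 0.0937% of all genes. For 6 of the 41, Mcm5, Mcm7, Pold3, Hells, Usp1 and Ccne2, all 6 astrocyte libraries lay below all 4 neuron libraries, as they did for 3.2% of all genes. For none did they all lie above, as they did for 0.976%.

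By gene, the helicase subunits had log2 fold changes of −1.49 ± 0.54 (± SE) for Mcm2, −2.17 ± 0.71 for Mcm3, −1.77 ± 1.13 for Mcm4, −2.32 ± 1.04 for Mcm5, −1.40 ± 1.00 for Mcm6 and −1.12 ± 0.65 for Mcm7. The group's median of −1.63 was nearer to 0 only than those of licensing and firing at −2.37 and of checkpoint and repair at −1.72, with the smallest p of all for Dtl (−4.40 ± 1.27, unadjusted p = 0.0037, adjusted p = 0.5) and then Mcm3 (unadjusted p = 0.00855, adjusted p = 0.5). Cdc6 stood at −2.37 ± 1.43, Cdc45 at −0.52 ± 0.89 and Gmnn at −1.72 ± 0.71. The 8 fork genes had a median of −1.11, among them Pcna at −0.86 ± 0.42, Prim1 at −0.95 ± 1.01 and Fen1 at −1.06 ± 1.58. Nucleotide supply lay nearest to 0, at −0.45 ± 0.44 for Rrm1, −0.93 ± 0.74 for Rrm2 and −0.14 ± 0.89 for Tyms. In the chromatin group, with a median of −0.92, Slbp was at −0.27 ± 0.44, Chaf1b at −1.32 ± 1.39 and Hells at −2.17 ± 1.11. The rest of the chosen genes were Clspn at −1.72 ± 1.17, Usp1 at −1.14 ± 0.50, Ccne2 at −2.65 ± 1.45 and E2f8 at −0.65 ± 1.34.

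The direction of this list held with RLE scaling, under which all 41 folds were again below 0, but the number called moved with the libraries used. Library numbers in the file names fall into 2 runs, and all neuron libraries belong to the first. Within that run, 3 astrocyte libraries against 4 neuron libraries, 20 of the 41 genes were called lower in astrocytes and none higher, where 7.46% of all genes were called lower. Eed+/+ neurons and Eed-/- astrocytes were 1 library each there, assumed to vary like the other groups. The single mutant astrocyte library was Eed-/- astrocytes 2, in which 19 of the 41 genes had no read. It counted as much in this contrast as the 2 Eed+/+ astrocyte libraries together. The median within this run was −2.69. The second run holds no neurons, so no value can be had within it. Leaving out Eed-/- astrocytes 5, whose sum is the higher of the 2 mutant ones, left 1 of the 41 genes called, Atad2, lower, where 1.36% of all genes were called lower. Leaving out Eed+/+ astrocytes 5 and Eed-/- astrocytes 2, which detected the fewest genes, left none called, with a median of −0.89 and 37 of 41 folds below 0. Over the Eed+/+ libraries alone the median was −0.81, with 38 of 41 folds below 0. Over the Eed-/- libraries alone it was −1.89, with 40 of 41.

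Marker levels in the same libraries are given beside this comparison. The 8 mitosis genes, which act after S phase, had a summed level of 4.23 to 1003 CPM in astrocytes and 570.3 to 953 CPM in neurons. All 8 folds were below 0 (median −1.37), none passed the test, and the smallest p were those of Ccnb1 (−1.75 ± 1.00, adjusted p = 0.715) and Mki67 (−1.84 ± 1.28, adjusted p = 0.792). Eomes, the marker of intermediate progenitors, was at 8.75 to 90.2 CPM in the neuron libraries, at 0 in 5 of the 6 astrocyte libraries and at 205 CPM in Eed-/- astrocytes 5, and the 8 intermediate progenitor markers summed to 276 to 1052 CPM in astrocytes and 656 to 1003 CPM in neurons. The 10 oligodendrocyte lineage markers summed to 1501 to 6333 CPM and 3021 to 4548 CPM in the same order. The 10 microglia, 8 endothelial and 5 erythroid markers stayed at or below 401, 28.7 and 29.1 CPM in every well aligned library. The part of these cell types in the S phase levels was not tested.

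The comparison of Eed-/- with Eed+/+ astrocytes asked whether loss of Eed in single astrocytes changed these genes, with 2 well aligned libraries against 4. The 2 mutant libraries were unlike each other, with summed levels of 488 CPM, just below the lowest control, and 1648 CPM, inside the control range of 503 to 2373 CPM. Of the 41 genes, 39 passed the filter on low counts (Fen1 and Blm did not), none was called, as none of the 12070 genes tested was (percent called 0), and the adjusted p of the 39 was 1.00 throughout. The median log2 fold change (Eed-/- minus Eed+/+) was −0.54 compared with −0.02 over all genes, with 26 folds below 0 and 13 above. At an unadjusted p under 0.05 stood 3 of the 39, all lower (7.69%, against 2.78% of all genes, with 1.26% higher): Ung, Gmnn and Gins2. DESeq2 and limma-voom called none of the 39.

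Gmnn had a log2 fold change of −3.34 ± 1.25 (unadjusted p = 0.0254, adjusted p = 1). Ung, with its single read in the mutant libraries, had a fitted log2 fold change of −5.49 ± 1.96, an unadjusted p of 0.0208 and an adjusted p of 1. With Mcm3 they were the 3 of 39 genes whose mutant libraries lay below all control libraries, or 7.69%, where 7.83% of all genes did so; none lay above, where 6.33% did. The smallest p of those above 0 were Cdc45 at 1.01 ± 1.33 (unadjusted p = 0.467) and Nasp at 0.39 ± 0.54 (unadjusted p = 0.486). The helicase subunits were at −1.28 ± 0.89 for Mcm2, −2.04 ± 1.38 for Mcm3, −1.66 ± 1.89 for Mcm4, −2.49 ± 1.86 for Mcm5, −0.51 ± 1.55 for Mcm6 and 0.44 ± 0.98 for Mcm7. Cdc6 was at −0.81 ± 2.57, Pcna at −0.37 ± 0.61, Prim1 at 0.82 ± 1.59, Rrm1 at 0.11 ± 0.62, Rrm2 at −0.08 ± 1.05 and Tyms at 0.61 ± 1.32. Slbp was at 0.01 ± 0.57, Chaf1b at −0.21 ± 2.38, Hells at −0.62 ± 1.97, Clspn at −0.56 ± 2.13, Usp1 at −1.09 ± 0.80, Ccne2 at 1.27 ± 2.42 and E2f8 at 1.21 ± 2.06, and in most of these the error exceeded the fold.

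**Figure D4:**
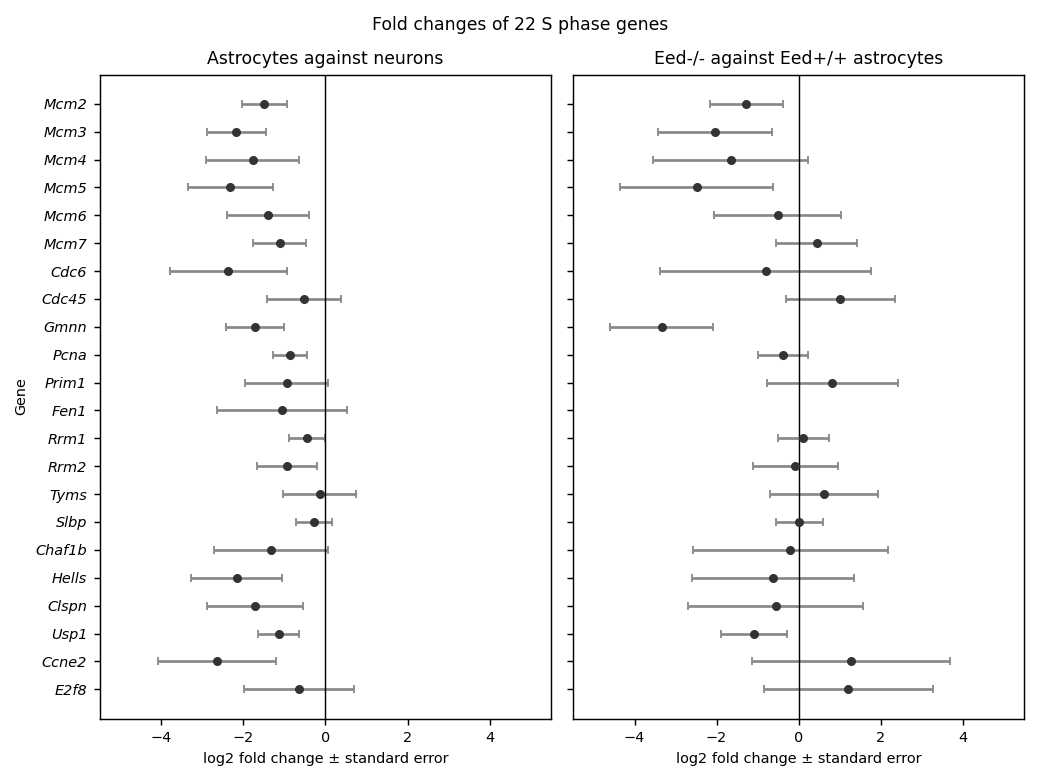
Log2 fold change with its standard error for the 22 genes chosen by role, for astrocytes against neurons (left) and Eed-/- against Eed+/+ astrocytes (right). All 22 points lie below 0 on the left, and on the right they fall on both sides, with Gmnn at −3.34 farthest from 0; Fen1 was not tested there.

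The 8 intermediate progenitor markers, whose sum was not tested, came to 367, 333, 341 and 276 CPM in Eed+/+ astrocytes and to 444 and 1052 CPM in Eed-/- astrocytes, which did not overlap among these well aligned libraries. Over all labelled astrocyte libraries they did, with 222 CPM in Eed+/+ astrocytes 3 and 1532, 84.3 and 28.3 CPM in Eed-/- astrocytes 1, 3 and 4. Their part in the S phase levels was not tested.

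Direction in astrocytes rested on single libraries. Without Eed-/- astrocytes 2 the median became 0.13, and without Eed-/- astrocytes 5 it became −2.74. Within the first run of library numbers (2 Eed+/+ libraries and 1 Eed-/- library), 4 of 34 genes tested were called lower, Atad2, Cdca7, Mcm4 and Mcm5, all with 0 reads in that mutant library, Eed-/- astrocytes 2, against 2.67% of all genes, and the median was −1.78. Within the second (2 Eed+/+ libraries and 1 Eed-/- library) none of 40 was called, and the median was −0.31. In both of these fits only the 2 Eed+/+ libraries gave a spread, and the single mutant library was assumed to vary like them. Gmnn kept its sign in both runs. In the poorly aligned libraries, however, Gmnn had 35 reads (91.4 CPM) in Eed-/- astrocytes 1, above every Eed+/+ astrocyte library, and 0 reads in Eed-/- astrocytes 3 and 4 and in Eed+/+ astrocytes 3.

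In neurons the same question was put to all 5 libraries, 2 of Eed+/+ and 3 of Eed-/- cells, of which Eed+/+ neurons 2 was poorly aligned. The summed level of the 41 genes was 2397 and 2799 CPM in Eed+/+ neurons and 2642, 2499 and 3389 CPM in Eed-/- neurons, which overlapped. Of 40 genes tested (all but Fen1) none was called, as none of the 11862 genes was (percent called 0), and the smallest adjusted p was 0.658. The median log2 fold change (Eed-/- minus Eed+/+) was 0.32 compared with 0.15 over all genes, with 29 folds above 0 and 11 below. At an unadjusted p under 0.05 stood Atad2 (−2.45 ± 0.87, adjusted p = 0.658) and Pola1 (−2.27 ± 0.82, adjusted p = 0.666), which are 5.0% of the 40, against 5.15% of all genes lower at that level, with 2.12% higher. Above 0, the smallest p were Tyms (1.79 ± 0.83, adjusted p = 0.686) and Mcm2 (1.19 ± 0.64, adjusted p = 0.721). All 6 helicase folds were above 0, from 0.25 to 1.19, as were all 3 of nucleotide supply, from 0.59 to 1.79, and none of these passed the test. The 11 below 0 included Cdc6, Cdc45, Gins2 and Dtl of licensing and Casp8ap2, Nasp, Hells and Atad2 of chromatin. The poorly aligned Eed+/+ neurons 2 and Eed+/+ neurons 1 differed by role. Their summed levels were 218 and 562 CPM for the helicase, 192 and 313 CPM for nucleotide supply and 1548 and 627 CPM for chromatin. DESeq2 and limma-voom called none of the 40, and in limma-voom the median of these genes was 0.051. The intermediate progenitor markers summed to 656 and 299.7 CPM in Eed+/+ neurons and to 1003, 877 and 863 CPM in Eed-/- neurons, without overlap, and neither this difference nor their part was tested.

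Both Eed+/+ neuron libraries were also left out in turn. Atad2, a chromatin ATPase, was at 39.2 CPM in Eed+/+ neurons 1, at 299.7 CPM in the poorly aligned Eed+/+ neurons 2 and at 23.9, 19.4 and 64.2 CPM in Eed-/- neurons. Pola1 was at 29.7 CPM, 113 CPM and 13.5, 12.1 and 24.1 CPM in the same order. In both, the poorly aligned library stood far above the other 4. Without Eed+/+ neurons 1, leaving that library alone as control, 10 of 40 genes were called, 5 higher in Eed-/- (Gmnn, Mcm6, Mcm7, Tyms and Ung) and 5 lower (Atad2, Casp8ap2, Hells, Pola1 and Rad51ap1), so 5 of 40 in each direction, against 11.7% of all genes higher and 8.86% lower, with a median of 0.73. In that fit only the 3 Eed-/- libraries gave a spread, and the single control was assumed to vary like them. Without Eed+/+ neurons 2 none was called and the median was 0.35, and without Eed-/- neurons 3 it was 0.10.

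Whether the genotype difference itself differed between cell types was tested as an interaction over the 10 well aligned libraries. Eed+/+ neurons were 1 library there, so the genotype fold in neurons rests on that library, which is assumed to vary like the other groups. With all 15 libraries the median was −1.26 and none was called. None of the 41 genes passed, as none of the 14445 genes did (percent called 0), with every adjusted p at 1.00, and the median interaction (fold in astrocytes minus fold in neurons, log2) was −0.92 compared with −0.19 over all genes. At an unadjusted p under 0.05 stood 3 of the 41, all below 0 (7.32%, against 1.63% of all genes): Ung (unadjusted p = 0.0254), Gmnn (−3.98 ± 1.63, unadjusted p = 0.0286) and Gins2, the same 3 as in astrocytes, whose libraries this test shares. Above 0 the smallest p belonged to Cdc45 (1.14 ± 1.77, unadjusted p = 0.529) and Ccne2 (1.11 ± 2.82, unadjusted p = 0.7). DESeq2 and limma-voom called none. Leaving out Eed-/- astrocytes 5 moved the median to −3.35. Leaving out Eed+/+ astrocytes 4 moved it to −0.19, equal to the median over all genes in the main fit. The interaction of Ung was −5.90 in the main fit, resting on 1 read in mutant astrocytes, and turned to 1.16 with all 15 libraries.

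A second list of 42 replication genes, without the 41, was read beside them. Its members include the origin recognition complex, the polymerase delta and epsilon subunits and Mcm10, which act at the same origins and forks. Their summed level was 383 to 1613 CPM in well aligned astrocytes and 1699.7 to 1998 CPM in neurons, without overlap, as for the 41 genes. Between cell types 39 of 42 folds were below 0 with a median of −1.15, none was called, and the smallest p lay with Rfc4, a clamp loader subunit (−2.75 ± 0.80, adjusted p = 0.5), and E2f2, an activating E2F (−4.57 ± 1.57, adjusted p = 0.5); above 0 stood Pold2 (0.33 ± 0.59), E2f1 (0.28 ± 0.89) and 1 other. Between genotypes in astrocytes 27 of 40 folds were below 0 with a median of −0.51 and none was called, the smallest p being those of Pole2 (−4.34 ± 2.17) and Rfc4 (−3.20 ± 1.68) below 0 and of Pola2 (1.52 ± 1.36) and Mcm10 (2.34 ± 2.27) above. In neurons 21 of 41 were above 0 with a median of 0.02 and none was called. The 8 mitosis genes had all folds below 0 between genotypes in astrocytes, with a median of −1.35 and none called, and 5 of 8 above 0 in neurons.

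On chromosome 7 lie 4 of the 41 genes, Rrm1, Pold3, Blm and E2f8, and of this chromosome green cells of both genotypes hold 2 paternal copies. Pold3, a polymerase delta subunit, was at 25.7, 11.01, 37.01 and 22.2 CPM in Eed+/+ astrocytes, 13.8 and 41.2 CPM in Eed-/- astrocytes, 64.9 CPM in the Eed+/+ neuron library and 53.3, 47.1 and 77.2 CPM in Eed-/- neurons. Blm, a RecQ helicase, was at 13.8, 4.72, 2.08 and 0 CPM in Eed+/+ astrocytes, 0 and 0 CPM in Eed-/- astrocytes, 19.03 CPM in the Eed+/+ neuron library and 11.9, 9.23 and 38.9 CPM in Eed-/- neurons. Pold3 did not overlap between cell types, and Blm had 0 reads in both well aligned mutant astrocyte libraries, at least 5.06-fold lower than 49 reads over the controls when set against 3 counts over the group; its fold there was not fitted. Without Eed+/+ astrocytes 1, which held 29 of the 49 reads, the bound was 2.67-fold. In the poorly aligned Eed-/- astrocytes 1 Blm had 101 reads (264 CPM), above every Eed+/+ astrocyte library.

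The poorly aligned libraries gave a patchy picture. Eed+/+ astrocytes 3 held reads of 22 of the 41 genes, Eed-/- astrocytes 1, 3 and 4 held reads of 14, 9 and 3, and Eed+/+ neurons 2 of 36. Their sums were 1394, 3877, 404, 392 and 2799 CPM in that order. In Eed-/- astrocytes 1, the highest sum of all, Rrm2 alone made up 32.3% of the reads of the 41 genes, at 1250.5, 0 and 0 CPM over Eed-/- astrocytes 1, 3 and 4, and Ung was at 718, 0 and 0 CPM in the same libraries. The 10 microglia markers summed to 15483, 2875 and 0 CPM in Eed-/- astrocytes 1, 3 and 4 and to 103 CPM in Eed+/+ astrocytes 3. The 5 erythroid markers summed to 8829, 52.05 and 11925 CPM and to 2.09 CPM in the same order. The part of these cells in the S phase levels was not tested. With all 10 labelled astrocyte libraries in the fit, 25 of the 41 genes passed the filter and none was called (median −0.83, all genes −0.54), and with all 15 libraries none of the 41 was called between cell types (median −1.47).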

How the data were processed

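Polyadenylated RNA of sorted cells was made into Smart-Seq v2 libraries. Per the labels, reads were aligned with STAR to GRCm38 (mm10); the annotation release is not stated in these sources. The deposited files hold raw read counts per Ensembl gene as the authors obtained them from STAR, in 3 columns for strand settings; column 2, counted without strand, was used, since 46.7 to 52.7% of strand-assigned reads fell on the first strand. The 4 total lines that name no gene were left out of library sizes; in well aligned libraries reads outside genes were 8.55 to 19.8% and ambiguous reads 3.73 to 4.62% of unique reads. Symbols came from GENCODE vM21 (53274 of 53379 identifiers), and promoter windows from RefSeq.

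Groups followed the labels; 1 of 16 libraries, whose title and cell type disagree, entered no comparison. The study's methods dropped 5 samples without naming them, so well aligned libraries (above) formed the main comparisons in astrocytes and between cell types. Genes passing filterByExpr were scaled by TMM and tested in edgeR 4.0.16 with the quasi-likelihood F test and Benjamini-Hochberg adjustment over all genes tested, called at 0.05. The SE is the fold divided by the square root of F. DESeq2 1.42.0, limma-voom (limma 3.58.1), RLE scaling, other filters and library sets and each library left out were alternatives; the scripts were tested on simulated data. CPM is a gene's reads scaled to 1000000 gene reads per library, with no normalization factor. P-values set a fold against the spread between these libraries, moderated over all genes tested, and in the main fits take all libraries as independent. A group of 1 library adds nothing to that spread.

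The 41 genes, the role groups and the marker lists were chosen with earlier results of these data known. Levels in every well aligned library are given for 22 genes chosen by role, with folds for them in astrocytes and between cell types, and for the 2 genes with the smallest p in each direction of each comparison; Gins2, Dtl, Nasp, Ung, Atad2, Pola1 and chromosome 7 genes are named beyond the 22 by that rule or because their values stood out or they lie there. From the 2 other lists, the same 2 per direction at most are named.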

Additional observations from a re-analysis of the deposited data

Results flagged for a closer look

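In 23 values compared over the 4 well aligned Eed+/+ astrocyte libraries (22 genes chosen by role and the summed level of the 41 genes), 3 had 1 library whose distance from the others passed Dixon's 95% critical value, where chance passes about 1 in 20. All 3 were the highest value and fell on Eed+/+ astrocytes 4, namely Cdc6 at 16.2 CPM, Prim1 at 62.4 CPM and Ccne2 at 5.41 CPM. The same library had the highest summed level of the astrocyte libraries.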

How the results depend on the processing

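Counting error limits genes with few reads, and the largest spread lay between astrocyte libraries, so a gene that missed the threshold is not shown to be equal between groups. The number of the 41 genes called stayed at 0 under RLE scaling, a mean count filter, limma-voom and the replicate block in all comparisons. It was 4 for genotype in astrocytes within the first run, and between cell types 20 within the first run, 3 without the filter and 1 in DESeq2. Leaving out 1 library gave 0 to 10 called in neurons (10 without Eed+/+ neurons 1) and 0 to 1 between cell types (1 without Eed-/- astrocytes 5). The median in neurons was 0.051 in limma-voom and 0.099 (without Eed-/- neurons 3) to 0.73 (without Eed+/+ neurons 1) over left-out libraries. The median in astrocytes ran from −2.74 (without Eed-/- astrocytes 5) to 0.13 (without Eed-/- astrocytes 2). The median interaction was −3.47 with the replicate block over all 15 libraries and −3.35 (without Eed-/- astrocytes 5) to −0.19 (without Eed+/+ astrocytes 4) over left-out libraries. Libraries of the same replicate number had correlations of −0.289 to 0.195 in their deviations from the group means. With groups as small as 2 libraries, some poorly aligned, this cannot exclude that astrocytes and neurons of 1 number shared an animal. The main comparisons took all libraries as independent. With the replicate block over the well aligned astrocyte libraries the median between genotypes in astrocytes was 0.46. The choices of runs in astrocytes and of the 2 libraries with the fewest genes were made after seeing the data. Leaving out Eed+/+ neurons 1 between cell types and in the interaction, and a replicate block in the interaction over well aligned libraries, could not be fitted. Where a setting left a group with 1 library, that library was assumed to vary like the other groups. The causes of these shifts were not tested.

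Folds were followed one by one only for the genes whose folds the text gives: 23 between genotypes in astrocytes, 4 in neurons, where none turned, 23 between cell types and 4 in the interaction. In astrocytes 15 of the 23 turned sign under at least 1 setting. In the first run alone they were Cdc45 −0.037, Mcm6 0.32, Mcm7 −0.10, Nasp −0.22, Rrm1 −0.51, Slbp −0.79 and Tyms −0.50. With the replicate block over all 10 astrocyte libraries they were Cdc45 −1.77, Mcm6 0.90, Mcm7 −1.58, Nasp −1.75, Rrm1 −1.75, Rrm2 1.19, Slbp −1.13 and Tyms −2.73. With the replicate block over the well aligned libraries they were Cdc6 0.48, Chaf1b 6.10, Clspn 0.37, Hells 0.46, Mcm6 3.97, Pcna 0.11 and Rrm2 2.06. In the second run alone they were Chaf1b 0.48, Clspn 0.053, Hells 0.52, Prim1 −0.56 and Rrm2 0.21. In limma-voom they were E2f8 −1.10, Rrm1 −0.23 and Slbp −0.35. With the run as a covariate they were E2f8 −0.043 and Slbp −0.096. Over all 10 astrocyte libraries they were Hells 0.84, Mcm6 0.81, Mcm7 −0.83, Nasp −0.74, Rrm1 −0.68, Rrm2 1.33, Slbp −0.35 and Tyms −0.34. In 1 fit over the 10 well aligned libraries it was Slbp −0.021. Without the filter it was Slbp −0.026. Over left-out astrocyte libraries the folds ran over −6.38 to 0.21 for Cdc6, −7.77 to 0.80 for Chaf1b, −7.54 to 0.57 for Clspn, −6.81 to 2.22 for E2f8, −8.30 to 0.38 for Hells, −0.92 to 0.84 for Mcm6, −0.33 to 1.16 for Mcm7, −0.26 to 0.83 for Nasp, −0.64 to 0.60 for Rrm1, −1.36 to 0.85 for Rrm2, −0.86 to 0.56 for Slbp and −0.56 to 1.25 for Tyms.

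Between cell types fewer signs turned, for 6 of the 23 genes followed. Over Eed-/- libraries alone it was Cdc45 0.050. Without the 2 libraries with the fewest genes detected they were E2f8 0.055, Slbp 0.037 and Tyms 0.38. Over Eed+/+ libraries alone they were Fen1 0.91, Gmnn 0.27 and Tyms 0.14. Of the genes not followed, Ubr7 was at 0.045 without those with the fewest genes detected. Over left-out libraries the folds ran over −0.69 to 0.026 for Slbp and −0.70 to 0.21 for Tyms. In the interaction 3 of the 4 turned. Over all 15 libraries they were Ccne2 −1.36 and Ung 1.16. With the replicate block over all 15 libraries they were Ccne2 −3.46 and Cdc45 −3.47. Over left-out libraries it was −4.71 to 4.03 for Ccne2.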

Other observations

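The library without a group, titled as an astrocyte and labelled as a neuron library, held 2 reads of the 41 genes, 1 of Rpa2 and 1 of Atad2, for a sum of 9.03 CPM.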
